A study of Homo sapiens with 51 samples.

Results

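KDF1 (keratinocyte differentiation factor 1) and BSPRY (B-box and SPRY domain containing) are 2 of the 25421 genes in a count table of human pancreatic ductal adenocarcinoma (PDA) cell lines, and both were selected on their counts in these libraries, being strongly higher after OVOL2 overexpression in KP4, PANC1 and PK45H. They were chosen by the contrast of OVOL2 with mCherry, so the values of that contrast are given here as a description, without a test. The mCherry libraries are part of that contrast, so their comparisons with untreated cells and with each other are descriptions too. For KDF1 and BSPRY, tests are given only between the untreated lines, whose libraries did not choose the genes.

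The table held 51 libraries in 17 groups of 3, made by PLATE-seq, a method that barcodes the 3′ ends of transcripts well by well. For KP4, PANC1 and PK45H there were 5 groups per line, namely untreated cells and cells given mCherry or OVOL2, each with or without M2rtTA. The lines HPAFII and PATU8988S contributed untreated libraries only. Per the labels, the transduced groups all received a lentivirus at a multiplicity of infection of 2 with 8 µg/ml of polybrene, followed a day later by fresh medium with puromycin (2.5 µg/ml) and doxycycline (0.6 µg/ml). These agents were therefore shared by the mCherry controls and the OVOL2 groups. The open reading frame was OVOL2, or mCherry, a fluorescent protein used as the negative control. In the arm with M2rtTA, a second lentivirus carried that transactivator, which binds tetracycline-responsive promoters when doxycycline is present. RNA was collected after 6 days of culture, and 100 ng of it went into each library. The labels give transduction in triplicate and do not say whether the triplicates were separate cultures, so p-values measure the spread between these libraries, which may be technical.

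OVOL2 is a zinc-finger transcription factor of epithelia that represses ZEB1, and ZEB1 is itself a repressor that binds E-box sequences at epithelial genes and acts in epithelial-mesenchymal transition. KDF1 is known from the skin, where it restrains the division of epidermal progenitors and promotes their differentiation, and variants of it cause an inherited defect of hair, teeth and skin. BSPRY is a protein of epithelial tissues, related by its domains to the TRIM family, and it was described as a partner of 14-3-3 proteins and of the epithelial calcium channel TRPV5.

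The promoters are shown because ZEB1, the factor that OVOL2 represses, recognises the E-box CAGGTG, which reads CACCTG on the other strand, and capitals mark these letters. Sequences are from RefSeq on GRCh38.p14 and are printed 5′ to 3′ on the strand of the gene. KDF1 is a protein-coding gene on the minus strand (chr1:26949562-26960468), and the 250 bases before its RefSeq start span chr1:26960469-26960718.
KDF1 promoter: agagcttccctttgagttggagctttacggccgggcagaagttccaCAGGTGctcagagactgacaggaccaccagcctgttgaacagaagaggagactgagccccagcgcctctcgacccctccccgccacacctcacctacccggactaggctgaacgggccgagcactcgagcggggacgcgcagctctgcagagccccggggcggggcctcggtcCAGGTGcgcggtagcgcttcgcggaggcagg
BSPRY is a protein-coding gene on the plus strand (chr9:113349541-113371222), and the stretch shown, 250 bases before its start and 14 after it, spans chr9:113349291-113349554.
BSPRY promoter: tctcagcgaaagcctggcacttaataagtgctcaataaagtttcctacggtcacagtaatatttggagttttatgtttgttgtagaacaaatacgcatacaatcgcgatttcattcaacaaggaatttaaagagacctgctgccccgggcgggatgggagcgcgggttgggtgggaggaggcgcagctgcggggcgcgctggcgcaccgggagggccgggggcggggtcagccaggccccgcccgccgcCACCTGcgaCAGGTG
KDF1 holds CAGGTG at positions -204 to -199 and at -31 to -26, counted from the first transcribed base as 1 with no base 0. BSPRY holds CACCTG at -1 to 5, across the start, and CAGGTG at 9 to 14. Of 35116 RefSeq promoters, 17.49% hold either form within the 250 bases before the start and 2.526% hold it at least 2 times, as KDF1 does. When 50 bases after the start are added, the shares are 20.59% and 3.494%, and BSPRY has 2 matches in that window and 0 in the shorter one. The hexamer CCGTTA, or TAACGG on the other strand, which is the core site reported for OVO proteins, was in neither window of either gene and in 3.073% of the longer windows. The motifs do not overlap each other, and a match of letters is a description, not a measured site. No other GENCODE v29 gene overlaps KDF1 or BSPRY, and the GENCODE start of KDF1 lies 62 bases inside the RefSeq one.

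Library totals ran from 1165399 to 7490556 counts, and the lowest belonged to HPAFII replicate 2. KDF1 had 10 to 334 counts per library and BSPRY 2 to 96, and 0 libraries lacked either gene. Levels are CPM, the counts scaled to library size with TMM factors, and group values are the mean ± SD of 3 libraries. Each change is a log2 fold change from edgeR with its standard error (SE). Since the tags come from 3′ ends, levels are compared between groups and not between genes. The ductal epithelial markers (4 keratins, EPCAM and MUC1) were present in each library, summing to 613 CPM at the lowest and 14420 at the highest. Of the 6 fibroblast markers, PDGFRB and LUM stayed at or under 1 CPM in each library, and the summed level reached 66.3 CPM. Leukocyte markers summed to 9.99 CPM at most and endothelial markers to 13.7. The groups are named by their labels, which the OVOL2 counts bear out only in part: without M2rtTA the 9 OVOL2 libraries held 54 OVOL2 counts in sum and the 9 mCherry libraries 56, and with M2rtTA they held 178 and 42. Whether the 3′ tags can count the transduced reading frame is not given in the sources used here. ZEB1 ran from 1.03 to 7.94 CPM in the 18 libraries labelled OVOL2 and from 11.2 to 33.8 in the 27 untreated and mCherry libraries of the same lines.

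KDF1 was low in KP4 cells without OVOL2 and high in those with it. Without M2rtTA, its level was 42.5, 31.8 and 33.7 CPM in OVOL2 replicates 1, 2 and 3, and 3.23, 3.09 and 2.77 CPM in the mCherry replicates. With M2rtTA, it was 38.3, 30.3 and 52.9 CPM against 2.25, 4.60 and 2.53 CPM. The lowest OVOL2 library thus lay far above the highest mCherry library in both arms, while the spread among OVOL2 libraries was wider with M2rtTA. The group means were 36.0 ± 5.71 against 3.03 ± 0.237 CPM without M2rtTA and 40.5 ± 11.5 against 3.13 ± 1.29 with it. The log2 fold change was 3.56 (SE 0.27) without M2rtTA, an 11.8-fold difference, and 3.71 (SE 0.27) with it, or 13.1-fold. Thinning each library to the smallest total gave 4.35 without M2rtTA.

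PANC1 began from a higher KDF1 level and reached the highest one of the study. Without M2rtTA, the OVOL2 replicates stood at 48.9, 44.8 and 46.2 CPM and the mCherry replicates at 7.21, 5.31 and 4.79 CPM. With M2rtTA, they stood at 48.3, 48.0 and 56.7 CPM against 6.68, 6.79 and 5.41 CPM. Both OVOL2 groups of PANC1 were tight, at 46.6 ± 2.12 and 51 ± 4.93 CPM, and neither overlapped its mCherry group. The change was 3.03 (SE 0.20) without M2rtTA and 3.05 (SE 0.20) with it, which is 8.18-fold and 8.26-fold.

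PK45H had the smallest KDF1 change. Without M2rtTA, the OVOL2 replicates held 23.6, 23.8 and 33.7 CPM and the mCherry replicates 4.67, 8.54 and 3.22 CPM. With M2rtTA, the values were 25.7, 28 and 21.8 CPM against 4.59, 2.60 and 3.78 CPM. The mCherry library at 8.54 CPM was the highest of the 27 libraries of the 3 lines without OVOL2, and it still lay below the lowest OVOL2 library. The change was 2.33 (SE 0.30) without M2rtTA, or 5.03-fold, and 2.77 (SE 0.29) with it, or 6.82-fold. Leaving out that mCherry library, replicate 2, moved the change without M2rtTA to 2.76.

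**Figure D1:**
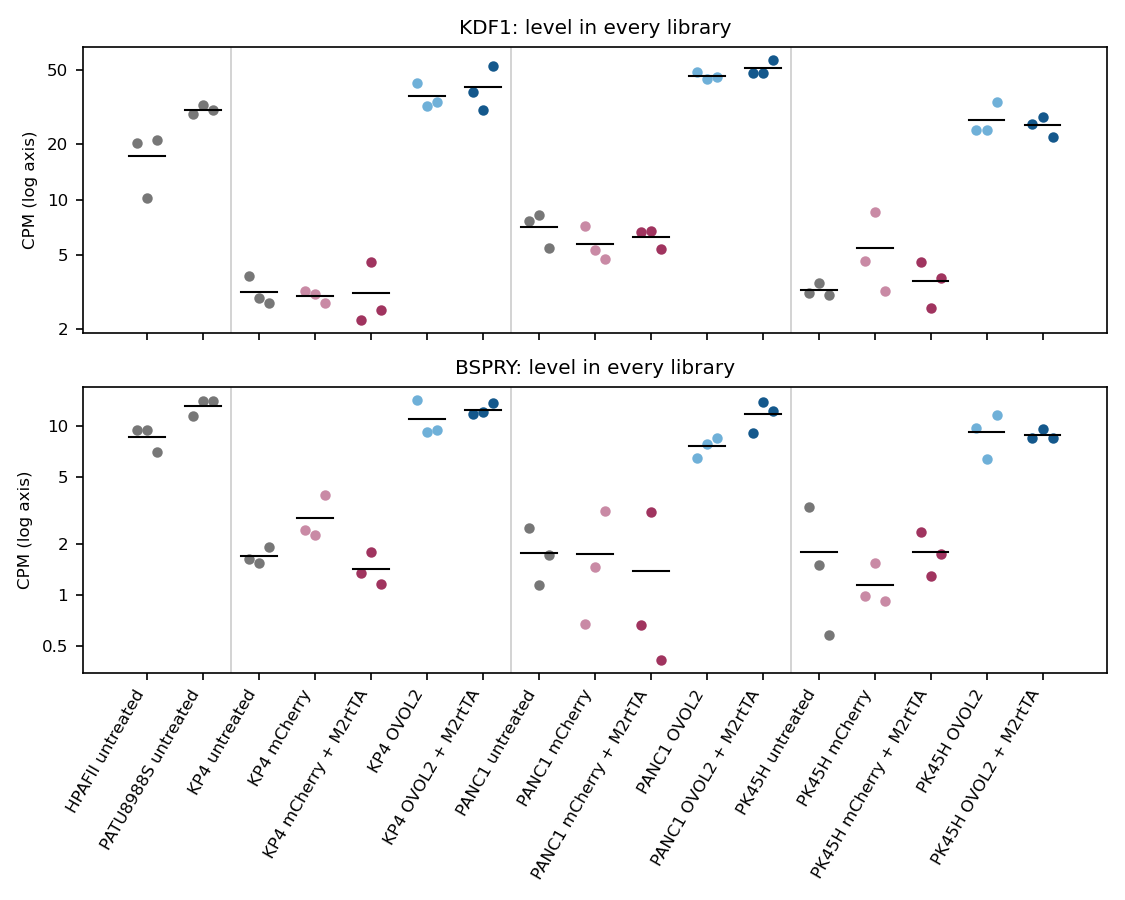
Level of KDF1 (top) and BSPRY (bottom) in every library, in CPM on a log axis; each point is a library, each bar the mean of the 3 libraries of a group, and the vertical lines separate the cell lines. The 18 OVOL2 libraries lie between 21.8 and 56.7 CPM for KDF1 and between 6.404 and 14.2 CPM for BSPRY, above each untreated and mCherry library of KP4, PANC1 and PK45H.

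BSPRY went the same way from a lower count. In KP4 without M2rtTA, the OVOL2 replicates held 14.2, 9.15 and 9.41 CPM and the mCherry replicates 2.42, 2.26 and 3.92 CPM. With M2rtTA, BSPRY stood at 11.8, 12 and 13.6 CPM against 1.35, 1.79 and 1.17 CPM. The OVOL2 means were alike in both arms, at 10.9 ± 2.86 and 12.4 ± 1.00 CPM, whereas the mCherry mean was 2.87 ± 0.913 CPM without M2rtTA and 1.44 ± 0.321 with it. The change was accordingly 1.95 (SE 0.26), or 3.86-fold, without M2rtTA and 3.12 (SE 0.29), or 8.68-fold, with it.

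The PANC1 controls of BSPRY rested on few counts. Without M2rtTA, the OVOL2 replicates stood at 6.45, 7.85 and 8.47 CPM and the mCherry replicates at 0.676, 1.46 and 3.13 CPM, the latter from 3, 11 and 17 counts. With M2rtTA, the OVOL2 replicates held 9.03, 13.8 and 12.2 CPM against 0.668, 3.10 and 0.416 CPM, from 3, 16 and 2 counts. The 3 mCherry libraries of either arm therefore differed among themselves by several-fold, and all lay below the OVOL2 libraries. The change was 2.10 (SE 0.53) without M2rtTA and 3.04 (SE 0.54) with it, or 4.28-fold and 8.25-fold. A single control library moved both values: the change was 2.75 without mCherry replicate 3 and, in the arm with M2rtTA, 4.42 without mCherry replicate 2.

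In PK45H, BSPRY was at 9.69, 6.404 and 11.6 CPM in the OVOL2 replicates without M2rtTA and at 0.983, 1.55 and 0.920 CPM in the mCherry replicates, each of which had 4 counts. With M2rtTA, the OVOL2 replicates held 8.51, 9.59 and 8.54 CPM and the mCherry replicates 2.37, 1.30 and 1.74 CPM. The groups were apart in both arms, and the control level was the higher one in the arm with M2rtTA. The change was 3.00 (SE 0.51), or 8.03-fold, without M2rtTA and 2.28 (SE 0.44), or 4.84-fold, with it.

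For both genes, each OVOL2 library lay above each mCherry library of its line and arm in all 6 comparisons. Of the 12505 genes tested in each of the 3 lines, 100 genes did so, or 0.8%; within 1 line and arm the share was 12.2% and 17.3% in KP4, 11.1% and 12.9% in PANC1, and 15.2% and 15.7% in PK45H, without and with M2rtTA. These are the comparisons that chose the genes, so nothing is read from these shares. Averaged over the 3 lines, KDF1 changed by 2.99 (SE 0.15) without M2rtTA and by 3.17 (SE 0.15) with it. For BSPRY the mean over lines was 2.37 (SE 0.26) and 2.81 (SE 0.26). Ordered by the size of the rise among 14943 genes, KDF1 was at rank 12 without M2rtTA and 27 with it, and BSPRY at rank 31 and 40. As these are bulk libraries, more cells that express a gene and more RNA per cell cannot be told apart. The 6 ductal markers summed to 1038 to 1188 CPM in the OVOL2 libraries of KP4 and 759 to 807 in the mCherry libraries, and to 4313 to 4690 against 2585 to 2986 CPM in PK45H. In PANC1 these sums overlapped, at 2301 to 2592 and 2199 to 2637 CPM, all without M2rtTA. With M2rtTA, the OVOL2 and mCherry sums were 942.5 to 1046 and 613 to 625 CPM in KP4. They were 4617 to 4755 and 1851 to 1989 CPM in PK45H, and 1942 to 2254 and 2232 to 2546 CPM in PANC1. The part of these markers in the values of KDF1 and BSPRY was not tested.

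KDF1 changed by similar amounts in both arms. The change with M2rtTA minus the change without it was 0.14 (SE 0.38) in KP4, 0.01 (SE 0.38) in PANC1 and 0.39 (SE 0.37) in PK45H, and 0.18 (SE 0.21) over the lines. For BSPRY the same difference was 1.16 (SE 0.63) in KP4, 0.94 (SE 0.65) in PANC1 and -0.77 (SE 0.69) in PK45H, and 0.44 (SE 0.38) over the lines. Since each of these differences uses the contrasts that chose the genes, none was tested. In KP4 and PK45H the OVOL2 means of BSPRY in the arms differed by less than the larger of their SDs, while the mCherry means were 2.87 and 1.44 CPM in KP4 and 1.15 and 1.80 CPM in PK45H, without and with M2rtTA. PANC1 was the line in which the OVOL2 mean itself was higher with M2rtTA, at 11.7 ± 2.42 against 7.59 ± 1.03 CPM. The summed fibroblast markers were also higher in the OVOL2 group with M2rtTA than in that without it, at 44.6 to 55.2 against 24.3 to 28.2 CPM in KP4, 48.1 to 66.3 against 22.4 to 27.7 in PANC1 and 28.6 to 34.6 against 9.78 to 13.5 in PK45H. COL1A1, which encodes a collagen chain, made up most of that sum, with 39.9 ± 4.54, 46.8 ± 11.8 and 22.6 ± 2.24 CPM in these groups, and its part in the BSPRY and KDF1 values was not tested.

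**Figure D2:**
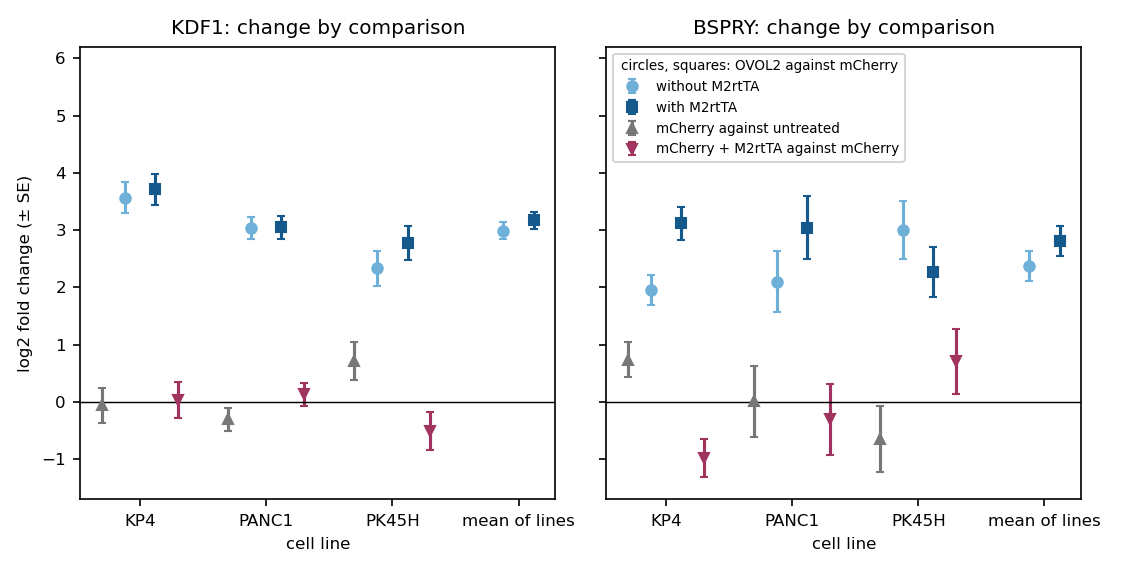
Log2 fold change ± SE of KDF1 (left) and BSPRY (right) for each comparison in KP4, PANC1 and PK45H, with the mean of the lines at the right of each panel; light circles and dark squares are OVOL2 against mCherry without and with M2rtTA, grey triangles mCherry against untreated, and red triangles M2rtTA without OVOL2. The OVOL2 changes lie between 1.95 and 3.71, and the control comparisons between -0.98 and 0.74.

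Transduction with the control vector was examined by mCherry against untreated cells, which shares the mCherry libraries with the contrast that chose the genes. The labels list polybrene, puromycin and doxycycline for the mCherry cells and not for untreated cells. The vector and these agents therefore cannot be told apart here. KDF1 was at 3.18 ± 0.576 CPM in untreated KP4, 7.13 ± 1.46 in PANC1 and 3.24 ± 0.267 in PK45H, and its log2 fold change with mCherry was -0.06 (SE 0.31), -0.31 (SE 0.20) and 0.71 (SE 0.33). BSPRY was at 1.71 ± 0.195, 1.79 ± 0.678 and 1.80 ± 1.38 CPM in the same untreated lines, and its log2 fold changes were 0.74 (SE 0.31), 0.01 (SE 0.61) and -0.65 (SE 0.58). The untreated libraries of BSPRY in PK45H ranged from 0.579 to 3.30 CPM. Of all genes, edgeR called 0% in KP4 (0 of 13662, with 966 at an unadjusted p under 0.05 and 11 called by DESeq2), 0.598% in PANC1 and 0.00736% in PK45H.

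M2rtTA without OVOL2 was examined by mCherry with M2rtTA against mCherry, where both groups are controls of the contrast that chose the genes. The log2 fold change of KDF1 was 0.02 (SE 0.32) in KP4, 0.13 (SE 0.20) in PANC1 and -0.51 (SE 0.33) in PK45H. That of BSPRY was -0.98 (SE 0.33), -0.31 (SE 0.62) and 0.71 (SE 0.57) in the same order. In KP4, BSPRY ranged from 1.17 to 1.79 CPM in the mCherry libraries with M2rtTA and from 2.26 to 3.92 CPM in those without it. With each library thinned to the smallest total, the change of BSPRY in KP4 was 0.046 and that of KDF1 in PK45H 0.30. Of all genes, edgeR called 0% in KP4 (919 at an unadjusted p under 0.05, 16 called by DESeq2), 0% in PANC1 (812 and 23) and 0.0294% in PK45H.

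Untreated HPAFII and PATU8988S, in which OVOL2 itself stood at 5.24 ± 3.18 and 23.3 ± 4.22 CPM, had more of both genes than the 3 other lines. KDF1 stood at 20.1, 10.2 and 21.1 CPM in HPAFII and at 28.9, 32.3 and 30.5 CPM in PATU8988S. BSPRY stood at 9.39, 9.39 and 7.02 CPM in HPAFII and at 11.4, 14 and 14.1 CPM in PATU8988S. The low KDF1 value of HPAFII was that of replicate 2, the library with the lowest total, which gave 13 counts, and its BSPRY value was like that of its mates. With the mean of these 2 lines set against the mean of KP4, PANC1 and PK45H, KDF1 was higher by 2.47 (SE 0.16), or 5.56-fold, with an edgeR adjusted p of 2.28e-08. BSPRY was higher by 2.58 (SE 0.28), or 6.00-fold, with an edgeR adjusted p of 4.77e-06. The highest values among the 9 untreated libraries of the other 3 lines were 8.22 CPM for KDF1 and 3.30 CPM for BSPRY. Of all genes tested here 17.4% were called higher, and the result covers these 5 lines only.

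The order of untreated KDF1 levels was PATU8988S (30.6 ± 1.67 CPM), HPAFII (17.1 ± 6.02), PANC1 (7.13 ± 1.46), PK45H (3.24 ± 0.267) and KP4 (3.18 ± 0.576). Of its neighbours, HPAFII against PATU8988S differed by -0.76 (SE 0.23, edgeR adjusted p = 0.0332, and 0.0369 when the 10 pairs of lines are adjusted for as well), where 20.2% of all genes were called. That call was lost without HPAFII replicate 2, at -0.56 (edgeR adjusted p = 0.0695), and without PATU8988S replicate 1 (0.0584), 2 (0.0970) or 3 (0.0809). HPAFII against PANC1 differed by 1.31 (SE 0.25, edgeR adjusted p = 0.00124), with 28.7% of genes called. PANC1 against PK45H differed by 1.15 (SE 0.27, edgeR adjusted p = 0.00511), with 25.6% called, or by 0.70 with an adjusted p of 0.295 when each library was thinned to the smallest total. KP4 and PK45H did not differ beyond their spread (-0.05, SE 0.28, edgeR adjusted p = 0.940).

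BSPRY gave fewer steps. PATU8988S (13.2 ± 1.5 CPM) and HPAFII (8.60 ± 1.37 CPM) came first and did not differ beyond the spread of their libraries (-0.60 for HPAFII against PATU8988S, SE 0.40, edgeR adjusted p = 0.317). PK45H (1.80 ± 1.38), PANC1 (1.79 ± 0.678) and KP4 (1.71 ± 0.195 CPM) followed, with differences of -0.11 to 0.03 between them (edgeR adjusted p = 0.912 for KP4 against PANC1, 0.927 for KP4 against PK45H and 0.978 for PANC1 against PK45H). HPAFII exceeded each of these 3 lines by 2.24 to 2.35 and PATU8988S exceeded them by 2.84 to 2.95, each past the threshold, the largest edgeR adjusted p being 0.0023. Without PK45H replicate 1, the differences from PK45H were 3.02 for HPAFII and 3.63 for PATU8988S. Thinning gave 3.03 for HPAFII against KP4 and 2.20 for PATU8988S against PANC1. KDF1 too was higher in HPAFII and PATU8988S than in each of these lines, by 1.31 to 3.27. Over all genes, 29.9%, 28.7% and 25.2% were called between HPAFII and KP4, PANC1 and PK45H, and 32.5%, 29.3% and 28.3% between PATU8988S and these lines. Among the 3 lines the shares were 21.9% for KP4 against PANC1 and 23.5% for KP4 against PK45H.

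With OVOL2, the KDF1 mean was above that of untreated HPAFII in each line and arm, and above that of PATU8988S in KP4 and PANC1. The BSPRY mean was below that of PATU8988S in each line and arm, and on either side of that of HPAFII. The HPAFII mean of KDF1 includes replicate 2, at 10.2 CPM from 13 counts. As a share of the PATU8988S mean and without M2rtTA, KDF1 was at 117.8% in KP4, at 152.5% in PANC1, the highest, and at 88.4% in PK45H. With M2rtTA it came to 132.4%, 166.8% and 82.4%. Against HPAFII it was 210.6%, 272.7% and 158.0% without M2rtTA and 236.6%, 298.2% and 147.2% with it. The BSPRY mean was 83.1%, 57.7% and 70.3% of that in PATU8988S without M2rtTA and 94.7%, 88.9% and 67.5% with it. Against HPAFII, BSPRY came to 127.0%, 88.2% and 107.5% without M2rtTA and to 144.8%, 135.9% and 103.2% with it, so that in PANC1 it lay below HPAFII in one arm and above it in the other. For KDF1, the OVOL2 libraries of PANC1 held 44.8 to 56.7 CPM and the PATU8988S libraries 28.9 to 32.3 CPM. The shares are ratios of group means with no test, because they rest on the OVOL2 libraries that chose the genes.

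By the same measure, most epithelial genes stayed further from PATU8988S. For 34 genes of epithelial adhesion, polarity and splicing, the median share without M2rtTA was 16.1% in KP4, lower than the 29.6% of PANC1 and the 31.3% of PK45H. With M2rtTA the medians were 22.5%, 34.9% and 30.3%. CDH1, which encodes E-cadherin, was at 21.4%, 17.6% and 33.2% without M2rtTA, and EPCAM, an epithelial adhesion molecule, at 23.5%, 34.2% and 25.2%. KDF1 exceeded the means of both HPAFII and PATU8988S in KP4 and PANC1. Among the 34 genes that was so for 0 in KP4, 1 in PANC1 (SPINT1) and 0 in PK45H without M2rtTA. With M2rtTA it was so for 1 in KP4 (MARVELD3) and 4 in PANC1 (CRB3, ESRP2, JUP and MARVELD3). As KDF1 and BSPRY were picked for the size of their rise and the list was not, the gap between them is a description.

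**Figure D3:**
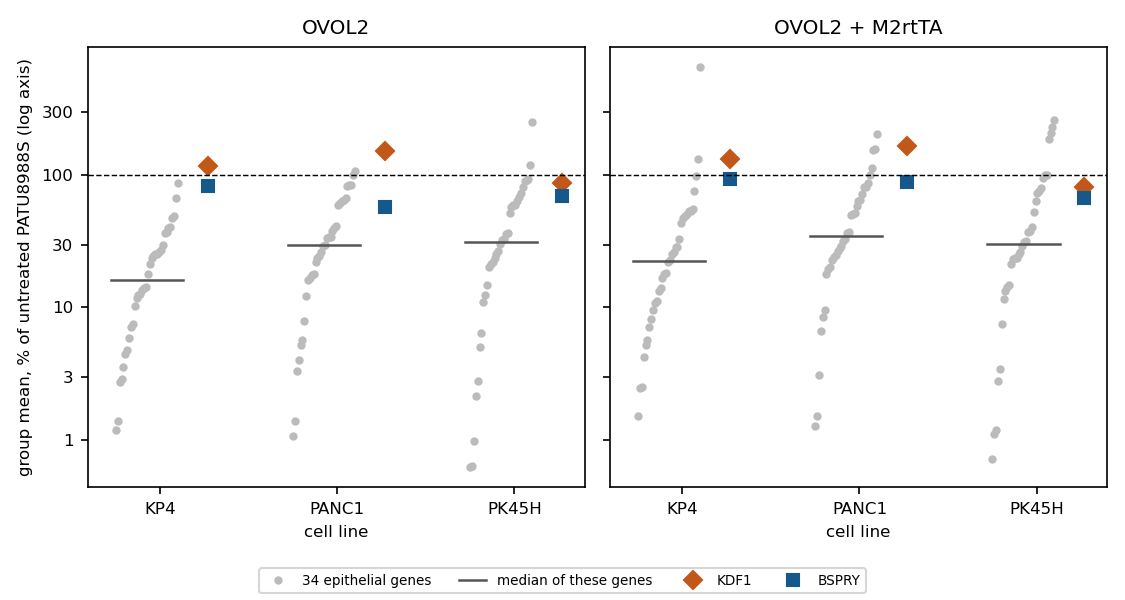
Group mean with OVOL2 as a percentage of the untreated PATU8988S mean, on a log axis, for 34 epithelial genes (grey points, sorted, with their median as a bar), KDF1 (orange diamonds) and BSPRY (blue squares), without M2rtTA (left) and with it (right). The dashed line is the PATU8988S level; KDF1 lies at 82.4% to 166.8% and BSPRY at 57.7% to 94.7%, while the medians of the list lie at 16.1% to 34.9%.

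The genes whose pattern was most like that of each gene were ranked among 12391 genes by Pearson's r of group mean log2 CPM over the 17 groups. KDF1 and BSPRY were both chosen for a rise with OVOL2, so a high r between them over these groups followed from that choice. For KDF1 the nearest were ZNF165, a zinc-finger gene (r = 0.953), BSPRY (0.916), NFKBID, an inhibitor of NF-kappaB (0.895), SPINT1, an inhibitor of epithelial serine proteases (0.891), and ARHGEF35 (0.889). ARHGEF35 is uncertain, since ARHGEF5 beside it is nearly identical and could share its reads. For BSPRY they were KDF1 (0.916), SPINT1 (0.915), CDC42BPG, a kinase that binds CDC42 (0.911), CDH1 (0.907) and LSR, a component of tricellular junctions (0.905). Without M2rtTA, ZNF165 was at 9.53 ± 0.130 CPM with mCherry and 32.1 ± 3.53 with OVOL2 in KP4, at 11.1 ± 3.03 and 74.2 ± 17.3 in PANC1, and at 7.52 ± 0.895 and 41.7 ± 3.52 in PK45H. It was at 34 ± 6.05 in HPAFII and 24.5 ± 3.31 in PATU8988S.

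The 17 groups fell into 2 sets, and the likeness of KDF1 and BSPRY rested on that split. Over the 8 groups with OVOL2 or of HPAFII and PATU8988S their r was 0.304, and over the other 9 groups it was -0.469. ZNF165 kept an r of 0.643 and 0.543 with KDF1 within these sets, and LSR one of 0.698 and 0.630 with BSPRY, whereas SPINT1 had -0.089 and -0.349 with KDF1. All groups share the libraries' processing and the controls of a line, and at so few counts the order within the low set is weak. With Spearman's rho, 2 of the 5 genes ranked first for KDF1 and 1 of the 5 for BSPRY were among those named; over the 15 groups of the transduced lines these counts were 1 and 2.

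**Figure D4:**
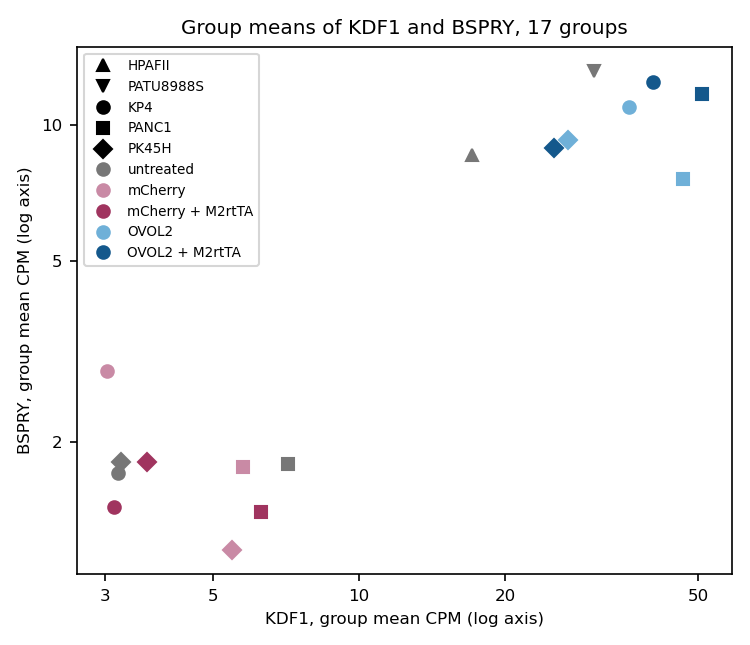
Group mean CPM of BSPRY against that of KDF1 for the 17 groups, both on log axes; the symbol gives the cell line and the colour the treatment. The 9 untreated and mCherry groups of KP4, PANC1 and PK45H lie at the lower left, at 7.13 CPM of KDF1 or less, and the other 8 groups lie at the upper right, from 17.1 CPM upward.

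The partners and relatives of the 2 genes were followed in 5 lists, with OVOL2 against mCherry over the 3 lines as the comparison. Of all genes tested, edgeR called 18.1% without M2rtTA, with 9.32% of genes higher and 8.81% of them lower, against 32.9% with M2rtTA, where 15.7% of genes were higher and 17.3% of them lower, and the median change of all genes was 0.00 and 0.03. Of 24 genes tested for epidermal differentiation, the process KDF1 is named for, 3 were called higher and 1 lower without M2rtTA, and 8 and 1 with it, with medians of 0.17 and 0.44. When 1 library was left out, 1 to 3 were lower without M2rtTA. SFN, which encodes the epithelial 14-3-3 protein sigma, rose by 0.83 (edgeR adjusted p = 4.03e-09) and 0.96 (5.11e-11). JAG2, a Notch ligand, was at 1.11 with M2rtTA (edgeR adjusted p = 8.33e-06) and at 0.37 without it (0.163). PERP, a component of desmosomes, fell by 0.35 (edgeR adjusted p = 0.0173) and by 0.74 (8.78e-07) in the mean over lines. In PANC1, PERP was at -0.998 without M2rtTA and -1.43 with it (edgeR adjusted p = 0.0128 and 0.000428). PERP was at 0.049 and -0.29 in KP4 (0.919 and 0.244) and at -0.15 and -0.49 in PK45H (0.626 and 0.0485). With M2rtTA, JAG2 was at 2.16 in KP4 (edgeR adjusted p = 0.00064), 0.77 in PANC1 (0.0189) and 0.40 in PK45H (0.492).

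For BSPRY, the list of 14-3-3 proteins and epithelial calcium transport had 15 genes tested, of which 1 was called higher and 5 lower without M2rtTA, and 2 and 5 with it, with medians of -0.13 and -0.19. Apart from SFN, which is in this list too, the named genes were lower: YWHAQ, another 14-3-3 protein, by -0.34 (edgeR adjusted p = 0.000421) and -0.53 (1.17e-07), ATP2B4, a plasma-membrane calcium pump, by -0.78 (1.36e-05) and -0.90 (4.13e-07), and ANXA2, a calcium-dependent membrane-binding protein, by -0.34 (0.0105) and -0.64 (1.97e-06). Thus of the 14-3-3 genes named, the epithelial one rose and YWHAQ fell in the mean over lines. By line, ATP2B4 was called lower in both arms of KP4 and PANC1. YWHAQ was called in both arms of PANC1 and with M2rtTA in KP4, and ANXA2 with M2rtTA in KP4 only. In PK45H, without and with M2rtTA, YWHAQ was at -0.17 and -0.11 (edgeR adjusted p = 0.422 and 0.598). ATP2B4 was there at -0.004 and -0.05 (0.993 and 0.895), and ANXA2 at -0.51 and -0.23 (0.0800 and 0.396). Among 33 tested genes with B-box or SPRY domains, the relatives of BSPRY, 5 were called higher and 1 lower without M2rtTA, and 10 and 5 with it, and the medians of 0.09 and 0.07 were close to that of all genes. Leaving out 1 library gave 0 to 2 lower without M2rtTA. SPRYD3 rose by 0.69 (edgeR adjusted p = 3.28e-08) and 0.50 (4.15e-06), and SPSB3, an adaptor of ubiquitin ligases, by 0.46 (0.0491) and 1.09 (2.28e-06). TRIM47 was at 0.02 without M2rtTA (edgeR adjusted p = 0.911) and fell by 0.98 with it in the mean over lines (1.94e-10). With M2rtTA, its mCherry and OVOL2 means were 73.3 and 24.2 CPM in KP4 and 75.4 and 23.7 CPM in PANC1. PK45H did not share that fall, at 37.2 ± 7.85 and 45.9 ± 8.45 CPM. SPRYD4 was at 0.17 (edgeR adjusted p = 0.258) and rose by 0.63 with M2rtTA (3.24e-06).

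The epithelial list had the largest medians of the 5, a description, since the lists were chosen with earlier results of these data known. Of its 34 genes, 20 were called higher and 1 lower without M2rtTA, and 28 and 0 with it, with medians of 0.79 and 1.21. The gene lower was MARVELD3, a tight-junction protein, at -3.01 (edgeR adjusted p = 0.0148), a call that was lost without KP4 mCherry replicate 3 and without PANC1 mCherry replicate 1. EPCAM rose by 2.19 and 2.26, CDH1 by 2.49 and 2.52, SPINT1 by 2.25 and 2.24 and JUP, which encodes plakoglobin, by 1.24 and 1.46, all past the threshold. Without M2rtTA, KDF1 at 2.99 lay above each gene of the list, and BSPRY at 2.37 lay below ST14 (2.84), CDH1 and ESRP1 (2.46). With M2rtTA, CRB3 (5.13), MARVELD3 (3.38) and ST14 (3.29) lay above KDF1 at 3.17, and TJP3 (2.96) lay between it and BSPRY at 2.81. Between the untreated lines, 33 of the 34 genes were called higher in HPAFII and PATU8988S, with a median of 3.01. Of 8 tested transcription factors that repress epithelial genes, 1 was called in each direction in both arms. ZEB1 fell by 2.64 without M2rtTA (edgeR adjusted p = 1.74e-10) and by 1.95 with it (1.44e-08). SNAI1, a zinc-finger repressor of CDH1, was higher by 1.60 (edgeR adjusted p = 0.0292) and 1.26 (0.0410), from levels under 1.7 CPM in each mCherry group but KP4 with M2rtTA, at 2.35. The SNAI1 call was lost after leaving out any 1 of 6 libraries without M2rtTA and of 10 libraries with it, among 45.

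The genes next to KDF1 and BSPRY did not share the size of their change. KDF1 and BSPRY were chosen for that size and the neighbours were not, so the gap is a description. NUDC, a dynein-associated protein and the nearest tested gene on one side of KDF1, fell by 0.21 without M2rtTA (edgeR adjusted p = 0.0165) and by 0.78 with it (3.75e-12). TRNP1, a nuclear protein on the other side, was at -0.04 without M2rtTA (edgeR adjusted p = 0.882) and at 0.49 with it (0.00349). The lines differed in direction: with M2rtTA, TRNP1 was at 0.55 in KP4 (edgeR adjusted p = 0.243), -0.65 in PANC1 (0.0111) and 1.57 in PK45H (5.11e-05). Beside BSPRY, WDR31 was at -0.36 (edgeR adjusted p = 0.271) and rose by 0.63 with M2rtTA (0.0190). HDHD3, on the other side of BSPRY, was at 1.06 (edgeR adjusted p = 0.247) and -0.64 (0.451). HDHD3 was set by single libraries. It had 1280 counts in KP4 mCherry with M2rtTA replicate 3, 889 in PK45H untreated replicate 1 and 626 in KP4 OVOL2 replicate 2. The highest counts of KDF1 and BSPRY were 334 and 96. Single control libraries did move the BSPRY change in PANC1, to 4.42 without mCherry with M2rtTA replicate 2.

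**Figure D5:**
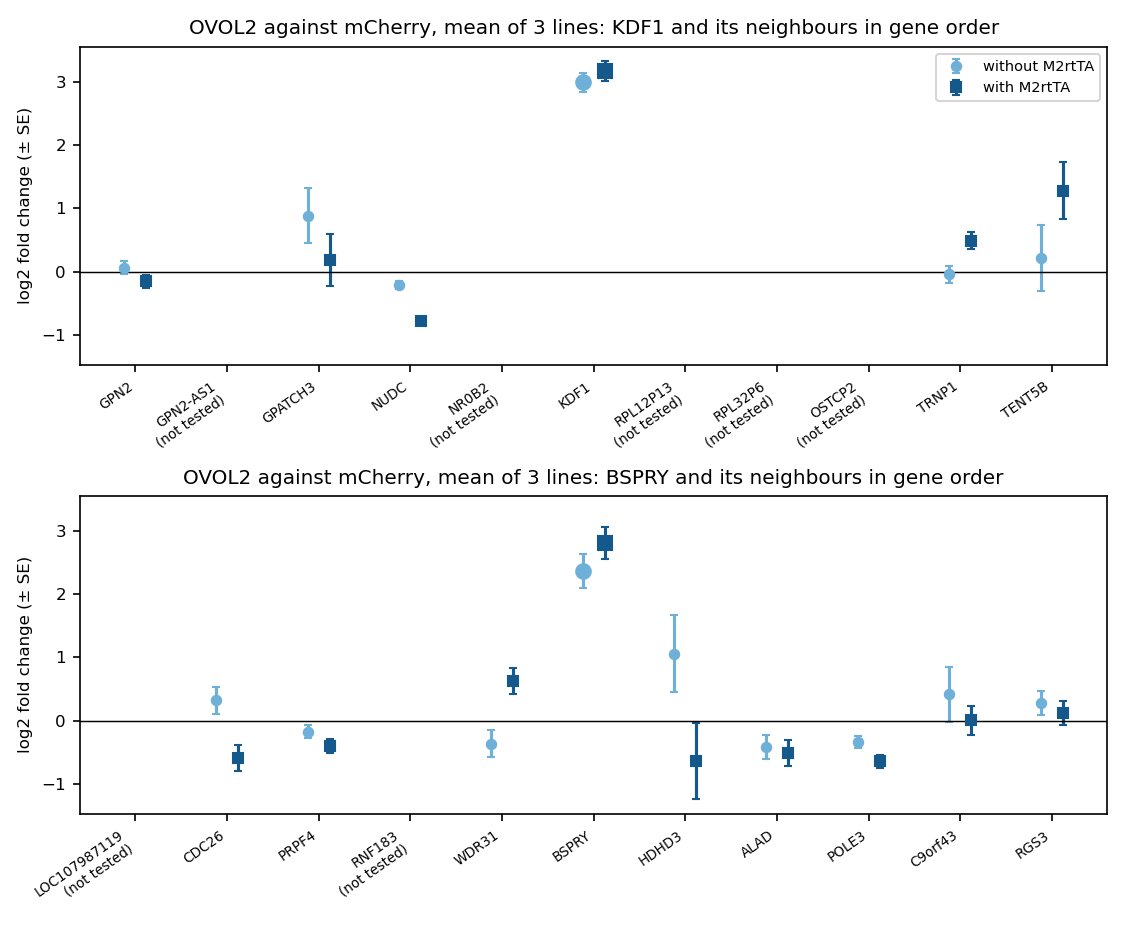
Log2 fold change ± SE for OVOL2 against mCherry, mean of the 3 lines, for KDF1 (top) and BSPRY (bottom, both enlarged) and the 5 genes on each side in RefSeq order, without M2rtTA (light circles) and with it (dark squares). Genes marked as not tested had too few counts or were not among the symbols of the table. The neighbours that were tested lie between -0.78 and 1.28, below KDF1 (2.99 and 3.17) and BSPRY (2.37 and 2.81), which were chosen for this change.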

How the data were processed

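The authors deposited whole-number counts per gene symbol, without normalisation, for 51 PLATE-seq libraries. Per the submitters' processing notes, kallisto 0.44.0 and GRCh38 were used. The annotation, the step from transcript estimates to whole counts and the handling of molecular identifiers are not given in the sources used here, so counts may include amplification copies. Standard errors come from the spread between libraries. The columns were matched to samples by the labels, and 0 columns stayed unmatched.

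The counts went into edgeR 4.0.16 under R 4.3.3 (filterByExpr by group, TMM scaling, two-sided quasi-likelihood tests, Benjamini-Hochberg adjustment over all genes tested, threshold 0.05). The 15 libraries of a line shared a fit, 45 libraries gave the mean over lines, and the 15 untreated libraries gave the line comparisons. CPM use TMM factors over the 51 libraries. Alternatives were RLE size factors, no filter, DESeq2 1.42.0, a fit of the compared groups only, of all 51 libraries, with replicate number as a block, thinning to the smallest total, and leaving out each library. Scripts were tested on simulated counts. The named genes are KDF1, BSPRY, OVOL2, ZEB1, EPCAM and CDH1, the 5 genes most like each of the first 2 (group mean of at least 5 CPM, prior count of 2 on the log2 scale), up to 4 genes with the smallest p with M2rtTA per list, and the nearest tested neighbours. MARVELD3, CRB3, ESRP1, ESRP2, ST14, TJP3, COL1A1, PDGFRB and LUM were named after their values were seen. Some genes that the rule names are not reported here. Of the symbols, 24784 of 25421 were in the reference tables. Totals of 1165399 to 7490556 counts per library limit BSPRY most, whose lowest library had 2 counts. Tests planned for KDF1 and BSPRY in comparisons that use mCherry libraries are left out, since those libraries chose the genes. The 2 genes and the lists were chosen with earlier results of these data known.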

Additional observations from a re-analysis of the deposited data

How the results depend on the processing

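Of 498 results recomputed under another setting, 443 were taken as unchanged. A tested change had to keep its direction and its side of the threshold. An OVOL2 change of KDF1 or BSPRY had to keep its direction and stay within the spread of its libraries. A count of genes had to stay within a fixed ratio of the main count. The settings with the most changes were thinning to the smallest total (24 of 75) and DESeq2 (10 of 77). Thinning moved the KDF1 change with OVOL2 to 4.35 in KP4 without M2rtTA, and with M2rtTA to 2.72 in PANC1 and 2.29 in PK45H; over lines it gave 3.37 without and 2.78 with M2rtTA, and for BSPRY in KP4 with M2rtTA 2.82. It turned M2rtTA without OVOL2 to 0.046 for BSPRY in KP4 and to 0.30 for KDF1 in PK45H. For mCherry against untreated cells in PANC1, BSPRY was -0.011 by DESeq2, -0.0086 by RLE size factors, -0.0115 in the fit of all 51 libraries, -0.38 after thinning and -0.081 with the replicate block. Thinning left 3216 genes called over lines with M2rtTA, 1504 without it and 3101 between the untreated lines. For M2rtTA without OVOL2, DESeq2 called 16, 23 and 75 genes in KP4, PANC1 and PK45H, and the fit of all libraries 23, 27 and 28; in PK45H the fit of the 2 groups called 1 and thinning 7. For mCherry against untreated cells, DESeq2 called 11, 191 and 26, and the fit of all libraries 11, 132 and 44; in PANC1 the fit of the 2 groups called 23 and thinning 46; in PK45H no filter and the replicate block called 2 each and thinning 0. The cause of these changes was not tested.

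Leaving out 1 library gave BSPRY changes with OVOL2 in PANC1 of 2.63 to 4.42 with M2rtTA and 1.80 to 2.75 without it. For mCherry against untreated cells the ranges were -0.62 to 0.33 (BSPRY, PANC1), -1.09 to 0.12 (BSPRY, PK45H) and -0.14 to 0.10 (KDF1, KP4). For M2rtTA without OVOL2 they were -1.68 to 0.32 (BSPRY, PANC1) and -0.32 to 0.21 (KDF1, KP4). Between untreated lines BSPRY ran from -0.37 to 0.23 (KP4 against PANC1), -0.53 to 0.68 (KP4 against PK45H) and -0.41 to 0.79 (PANC1 against PK45H), and KDF1 from -0.20 to 0.035 (KP4 against PK45H). The genes called ranged over 0 to 1, 0 to 14 and 2 to 18 for M2rtTA and over 0 to 1, 27 to 75 and 0 to 5 for mCherry in KP4, PANC1 and PK45H.

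The replicate numbers did not pair the samples: same-numbered libraries had correlated deviations of -0.128 to 0.152, and in none of 12 comparisons were all pairs over 0.1. With the replicate block, KDF1 in HPAFII against PATU8988S had an edgeR adjusted p of 0.0519. Low counts limit BSPRY most, as its controls held as few as 2 counts.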
